A study of Mus musculus with 15 samples.

Results

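The mucosa of the distal colon was compared between mice that had passed through repeated cycles of dextran sodium sulfate (DSS) and mice that drank water. The samples titled DSS vehicle 1 to 5 were set against those titled water 1 to 5, so that 10 of the 15 samples of the series entered the comparison. All were female Balb/cJ mice, 8 weeks old when DSS began. The DSS vehicle mice drank 4% DSS for 4 days in each of 3 cycles, with washouts of 3 days on regular water, and were given the vehicle of filgotinib, a JAK1 inhibitor. The labels name a vehicle control as the compound of the water mice too, whereas the design text mentions drinking water alone, so their dosing is uncertain. The remaining 5 mice, given DSS with filgotinib, were outside the contrast. They contributed to the estimate of the spread and to the choice of the probes tested. Mucosa was scraped from 30 mm of the most distal descending colon, which leaves some connective tissue and muscle in a sample to a degree that can differ between mice, and 100 ng of RNA per mouse was labelled for 1 array each.

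DSS is a sulfated polysaccharide that injures the colon epithelium when it is drunk. The barrier opens to luminal bacteria, leukocytes enter the mucosa, and the epithelium is then rebuilt from the crypts during the washouts. Repeated cycles are used as a model of long-lasting colitis, in which injury and repair are seen in the same tissue.

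At most 62.1% of the probes of an array exceeded background clearly. Water arrays were brighter, with a 75th percentile of 684 to 813, than DSS vehicle arrays, with 571 to 667. Precision is limited by having 5 arrays per group. Levels are given as the log2 of the signal relative to that percentile of the same array, so a level of 0 is as bright as the 75th percentile, and levels were compared between mice for 1 gene at a time. Of 22015 genes tested, 16167 with a symbol of the RefSeq table, 2369 were higher in DSS vehicle mice (10.8%) and 1852 lower (8.41%) at an adjusted p under 0.05 in limma's moderated test, which is what "rose", "fell" and "called" mean below. At least a 2-fold change was reached by 396 of the rises (1.8% of all genes) and 479 of the falls (2.18%). Rises made up 56.1% of the calls, and 37.9% with the median of each array as its scale. The median log2 fold change over all genes was 0.05. All DSS vehicle mice exceeded all water mice for 9.84% of genes and lay below all of them for 6.2%. The labels give 1 animal per sample, and p-values measure the spread between these mice.

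The groups lay largely on different slides. Water mice 1, 2 and 4 shared slide 1, DSS vehicle mice 1, 4 and 5 slide 3, and DSS vehicle mouse 3 was on slide 4. Slide 2 alone held both groups, with water mice 3 and 5 and DSS vehicle mouse 2. With the slide as a block the contrast rests on slide 2 alone, that is on DSS vehicle mouse 2 against water mice 3 and 5. Most calls were then lost. A fit that leaves 1 DSS vehicle mouse cannot show which genes changed apart from the slide. Its median log2 fold change over all genes was 0.08. Of the 4221 called genes, 99.1% had the same sign within slide 2, whose 3 arrays were also part of the test. For most of the comparison, slide and group cannot be told apart. Leaving out water mouse 4 left 1522 rises and 1308 falls.

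The tissue label was borne out by colon epithelial markers: all 16 listed markers, among them Muc2, Krt8 and Vil1, were well above background on all 10 arrays. Stromal content differed widely between mice of the same group. Relative to the water mean, the median log2 level of 13 smooth muscle markers was 3.06 in DSS vehicle mouse 1 and 2.68 in mouse 5, against -0.08, 0.07 and 0.60 in mice 2, 3 and 4 and -0.43 to 0.61 in water mice. None of the 13 passed the test, and 1 did without DSS vehicle mouse 3 or with the mean of a gene's probes. The median of 20 fibroblast markers was 2.63 in DSS vehicle mouse 5 and 0.02 to 1.29 in the other DSS vehicle mice, while water mice 1 and 5 stood at 1.01 and 1.28 and water mice 2, 3 and 4 between -0.80 and -0.35. Of 20 fibroblast markers 3 rose (15%, against 19.2% of all genes called), and none did without DSS vehicle mouse 1 or 4 or water mouse 2 or 4. DSS vehicle mouse 5 was also the highest for endothelial (1.91), macrophage (1.58) and B and plasma cell markers (1.47), of which 0 of 16, 1 of 15 and 4 of 12 rose. Of the B and plasma cell markers 1 rose without water mouse 4, DSS vehicle mouse 1, 3, 4 or 5 or either set of mice named below, and 2 without water mouse 1, 2 or 3. Of the macrophage markers 2 rose without water mouse 5 or filgotinib mouse 1, 4 or 5. Macrophage markers were called at 6.67% and B and plasma cell markers at 33.3%, against 19.2% of all genes. Of the 16 epithelial markers 10 rose, with a median of 0.27, but 1 or 2 rose under other scalings of the arrays and 3 without either of those sets. Without DSS vehicle mouse 1 there were 5 such rises, and 6 without water mouse 2, 4 or 5 or without DSS vehicle mouse 2 or 4. The counts below were therefore repeated without the 2 DSS vehicle mice rich in smooth muscle (1 and 5) and without the 3 mice rich in fibroblast markers (water 1 and 5, DSS vehicle 5). Without those sets 1122 and 832 genes rose and 999 and 849 fell. In tissue, fewer cells of a type and less RNA per cell cannot be told apart.

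**Figure D1:**
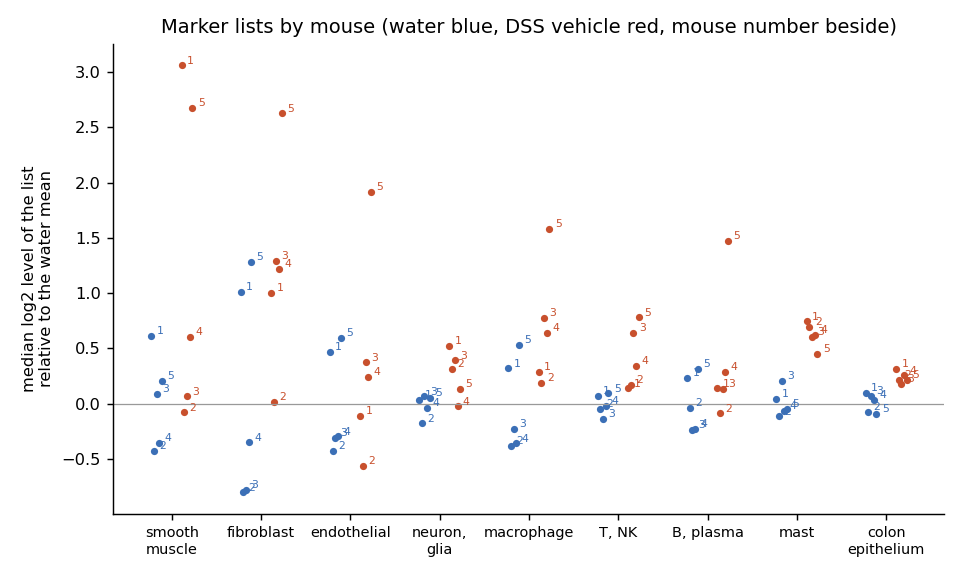
Median log2 level of each list of cell type markers relative to the water mean (vertical axis) by mouse, with water mice in blue, DSS vehicle mice in red and the mouse number beside each point. DSS vehicle mice 1 and 5 stood apart for smooth muscle markers and mouse 5 for fibroblast, endothelial, macrophage and B and plasma cell markers. The medians of all 5 DSS vehicle mice lay above those of all water mice for T and NK cell, mast cell and colon epithelium markers. For T and NK cell markers the gap was small, from at most 0.09 in water mice to at least 0.14 in DSS vehicle mice. Of 15 such markers 2 rose (13.3%, against 19.2% of all genes).

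The largest rises, among genes measured in both groups with no overlap, included an adhesion receptor, a homeobox factor, an iron reductase and the gut hormone Cck next to mast cell and inflammatory genes. Adgrf1, an adhesion G protein-coupled receptor, was at -2.33, -2.64, -3.30, -3.23 and -2.86 in water mice 1 to 5 (here and below in that order) and at 0.64, 0.74, 0.78, 0.30 and 0.31 in DSS vehicle mice 1 to 5. Each DSS vehicle mouse stood well clear of each water mouse, and the spread within either group was small. Adgrf1 rose 10.7-fold (log2 fold change 3.42 ± 0.25 SE, limma adjusted p = 6.02e-06).

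Cck, which encodes the hormone cholecystokinin and in the gut is made by endocrine cells, was at -4.13 to -4.29 in the 5 water mice and at -0.40, -1.63, -0.43, -0.78 and -0.62 in DSS vehicle mice. The water mice were nearly identical, and DSS vehicle mouse 2 showed the smallest of 5 clear increases. The log2 fold change was 3.43 ± 0.24 SE (limma adjusted p = 5.89e-06). Isx, an intestine-specific homeobox repressor that limits vitamin A uptake, was at -3.19, -4.16, -1.93, -3.70 and -3.64 in water mice and at 1.49, 0.75, 0.60, 1.02 and -0.65 in DSS vehicle mice. Water mouse 3 was the highest of its group and DSS vehicle mouse 5 the lowest of its own, but a gap remained between the groups, and Isx rose 15.6-fold (limma adjusted p = 0.000485).

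Ddah1, the enzyme that removes the nitric oxide synthase inhibitor asymmetric dimethylarginine, rose from a mean of -3.52 ± 0.23 (SD, n = 5) to -0.27 ± 0.50 (limma adjusted p = 0.000193). Slpi, a secreted inhibitor of neutrophil elastase, was already bright in water mice at 3.13 ± 0.18 and reached 6.45 ± 0.43 (limma adjusted p = 7.88e-05). Its probes differed in size, with log2 fold changes of 0.56 and 3.32. Acta1, a sarcomeric actin, rose by 3.12 ± 0.48 SE on the log2 scale with no overlap. Its level was -2.66 to -0.74 in water mice, highest in mouse 1, and 0.52 to 1.66 in DSS vehicle mice, lowest in mouse 1. Those 2 mice had the highest smooth muscle medians of their groups. The part of smooth muscle content in the Acta1 levels was not tested. Saa3, an acute-phase apolipoprotein, and S100a9, a calcium-binding protein of neutrophils, rose 15.6-fold and 14.4-fold and spread widely among DSS vehicle mice, S100a9 from -3.14 in mouse 2 to 1.76 in mouse 3. Without DSS vehicle mouse 3 the log2 fold change of S100a9 was 3.17 in place of 3.85, and its call was lost without the fibroblast-rich mice.

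**Figure D2:**
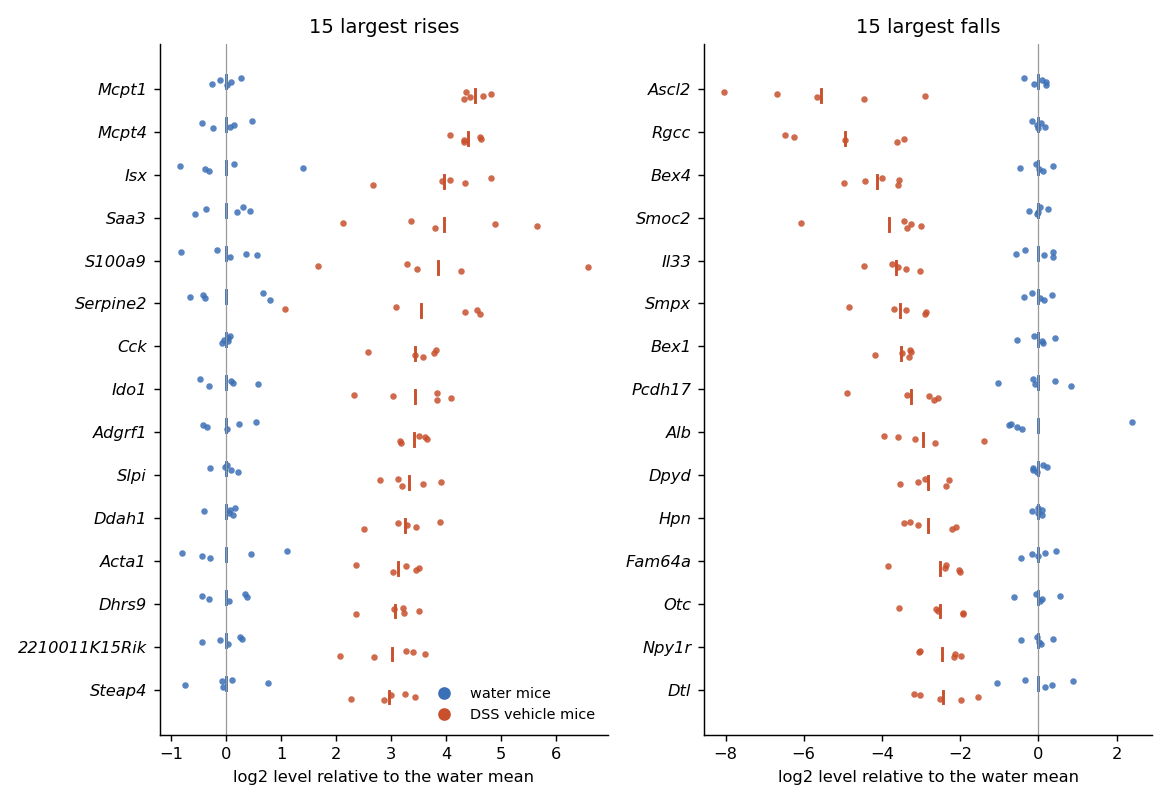
The 15 largest rises (left) and 15 largest falls (right) among called genes with an established symbol, no overlap between the groups and a signal well above background on at least 3 arrays of each group, as the log2 level relative to the water mean (horizontal axis). Each point is 1 mouse, water in blue and DSS vehicle in red, and bars mark the group means; Cck, Adgrf1 and Mcpt4 have tight groups, whereas Ascl2, S100a9 and Saa3 spread widely among DSS vehicle mice.

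The largest falls joined stem cell, cell cycle and nutrient-handling genes with several that are better known from nerve or muscle. Rgcc, a regulator of cell cycle progression, was at 2.88, 3.12, 3.01, 3.22 and 3.04 in water mice and at -3.44, -3.19, -0.40, -1.88 and -0.56 in DSS vehicle mice. The water mice were uniform, and the fall was deepest in DSS vehicle mice 1 and 2 and shallowest in mice 3 and 5. Its log2 fold change was -4.94 ± 0.58 SE (limma adjusted p = 0.000162).

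Ascl2, the transcription factor that maintains crypt stem cells, followed a similar order: 1.90 to 2.47 in water mice and -5.76, -4.42, -0.63, -3.40 and -2.20 in DSS vehicle mice, with mouse 1 not well above background. DSS vehicle mouse 3 kept the most Ascl2 transcript, yet less than any water mouse. The log2 fold change of -5.55 became -4.93 without DSS vehicle mouse 1 and -6.21 without mouse 3. Lgr5, a Wnt-linked receptor of the same stem cells, was not well above background in any DSS vehicle mouse (mean -6.71 against -1.33 in water) and was at least 9.02-fold lower (limma adjusted p = 5.93e-10). Its probe entered the test through mice outside the DSS vehicle group, so this p-value is partly set by the filter on background and by values near background. The other probe of Lgr5 gave a log2 fold change of -2.48. Smoc2, a secreted protein of the same cells, went from 1.95 ± 0.17 to -1.88 ± 1.27 (SD, n = 5 per group), with DSS vehicle mouse 2 at -4.13 and the other 4 between -1.49 and -1.05. It fell 14.2-fold (limma adjusted p = 0.000535), and its 3 probes ranged from -3.82 to -1.02.

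The X-linked genes Bex4 and Bex1, of a small family first found in brain, fell 17.3-fold and 11.3-fold (limma adjusted p = 0.00021 and 9.6e-05). Smpx, named for a small muscle protein, was well above background in 5 water and 4 DSS vehicle mice and fell by 3.54 on the log2 scale, the opposite direction to Acta1. Il33, an alarmin released by damaged cells, fell by 3.64 ± 0.44 SE and was well above background in 3 of 5 DSS vehicle mice. Npy1r, a receptor of neuropeptide Y, and Hpn, a membrane-bound serine protease, fell 5.56-fold and 7.07-fold (limma adjusted p = 0.000116 and 0.000129). Dpyd, which starts the breakdown of pyrimidines, and Otc, an enzyme of the urea cycle, fell 7.13-fold and 5.72-fold, with Otc well above background in 3 DSS vehicle mice. Dtl, which directs the destruction of the licensing factor Cdt1, fell by 2.45 ± 0.40 SE. Alb, which encodes serum albumin, was at 1.29 in water mouse 1 against -1.85 to -1.52 in the other water mice. Its log2 fold change was -2.94, and -2.34 without that mouse.

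Genes whose level in 1 group was not well above background on any array have a bound in place of a fold. There were 152 such genes, of which 16 were called higher and 78 lower, and for 99 of the 152 the bound was above 1. A probe was tested only if it was clearly above background on enough arrays of all groups together. Such a gene therefore entered the test through mice outside its dim group. The calls and p-values of these genes, here and elsewhere, are thus partly set by that filter and by values near background. The interleukin 33 receptor Il1rl1 was at -0.67, -2.25, -0.10, 0.25 and -0.45 in DSS vehicle mice (mean -0.65), against a mean of -6.82 in water mice, and was at least 21.6-fold higher (limma adjusted p = 0.000341). The other probe of Il1rl1 gave a log2 fold change of 4.05. The matrix metalloproteinases Mmp10, Mmp13 and Mmp3 (means of -0.86, -1.74 and -2.59 against -6.66, -6.91 and -7.20 in water) were at least 18.7-fold, 10.1-fold and 5.61-fold higher, Mmp3 being well above background in 4 of the 5 DSS vehicle mice.

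DSS vehicle mouse 2 was the lowest of its group for Il1rl1 and for each of the 3 metalloproteinases: it stood at -5.60 for Mmp3, where the others lay between -2.14 and -1.60. Without that mouse Mmp3 was at least 9.45-fold higher, and its call was lost without the fibroblast-rich mice. For the chemokine Cxcl5, which attracts neutrophils, mouse 2 was again lowest, but its DSS vehicle values of -2.29, -2.75, -1.84, -2.32 and -2.36 (mean -2.31 against -7.03 in water) were close together, and it was at least 6.8-fold higher. Among the lower genes, the transporters Atp13a4 and Slc16a12 were at least 5.99-fold and 3.79-fold lower (means of -6.57 and -5.70 against -1.92 and -2.58), and the kinase gene Rps6ka6 at least 3.0-fold (-5.33 against -2.92).

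Genes that license and fire replication origins fell almost as a whole. Before DNA is copied, the Mcm helicase is loaded on origins by Cdc6 and Cdt1 and then switched on together with Cdc45 and the Gins complex. Of 31 measured genes of this list 26 fell and none rose, and the list's median change was -0.84 on the log2 scale. Values did not overlap for 10 of them, all lower in DSS vehicle mice. Within slide 2 the median was -0.87. Without the muscle-rich mice 19 fell and without the fibroblast-rich mice 15.

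The helicase subunits Mcm5 and Mcm6 carry a match to TTTNGCGC, a core of the motif bound by E2F factors, which turn on S phase genes. Both are shown because they fell most within the list. The stretches below are from the RefSeq promoters of GRCm38.p6, written along the gene's strand with the matches in capitals, Mcm5 from chr8:75109336-75109387 (plus strand, 2 overlapping matches on opposite strands) and Mcm6 from chr1:128359725-128359835 (minus strand, 3 matches, of which 2 overlap). The searched window was the 250 bases upstream of the start, on both strands.
Mcm5: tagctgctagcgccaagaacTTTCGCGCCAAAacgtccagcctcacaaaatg
Mcm6: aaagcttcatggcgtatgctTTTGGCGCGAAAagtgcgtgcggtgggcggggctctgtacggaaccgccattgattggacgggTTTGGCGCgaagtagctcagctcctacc
The motif was present in 5 of the 25 licensing genes with a promoter in the table, in 0 of the 20 homologous recombination genes described next and in 1.13% of all 32851 promoters of the same length. A gene counts if any of its promoters has a match, whereas the percentage is per promoter, so the measures differ. A match describes the letters in this window and says nothing about binding.

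Mcm6 was at 3.18, 3.97, 1.96, 3.42 and 3.22 in water mice and at 0.77, 0.49, 2.33, 1.12 and 1.44 in DSS vehicle mice. Water mouse 3 was low for its group and DSS vehicle mouse 3 high, so that these 2 mice alone brought the groups into overlap. Mcm6 fell by 1.92 ± 0.38 SE on the log2 scale (limma adjusted p = 0.00382). Mcm5 showed the same order, from 0.44 in water mouse 3 to 2.13 in water mouse 2 and from -1.10 in DSS vehicle mouse 2 to 0.67 in DSS vehicle mouse 3 (log2 fold change -1.77 ± 0.35 SE). The median of the whole list relative to the water mean was -0.57 in water mouse 3 and -0.47 in DSS vehicle mouse 3, against -0.03 to 0.43 in the other water mice and -1.16 to -0.92 in the other DSS vehicle mice. Gmnn, which encodes the licensing inhibitor geminin, had the smallest of the 26 falls (0.26 ± 0.07 SE), a call lost without water mouse 2 or 4, DSS vehicle mouse 1 or 3 or either stroma-rich set.

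Homologous recombination mends broken forks with the sister strand. Of 24 measured genes of this repair route 15 fell and none rose (13 without the muscle-rich and 7 without the fibroblast-rich mice), with a median of -0.90. The resection nuclease Exo1 was at -0.70, -0.09, -1.29, -0.15 and -0.48 in water mice and at -3.25, -3.57, -1.79, -2.84 and -2.83 in DSS vehicle mice. No values overlapped, and DSS vehicle mouse 3 was again the least reduced. Exo1 fell 4.97-fold (limma adjusted p = 0.000766). The brightest probe of Brca1 gave 0.12 and did not pass the test, but its other probe gave -1.52.

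**Figure D3:**
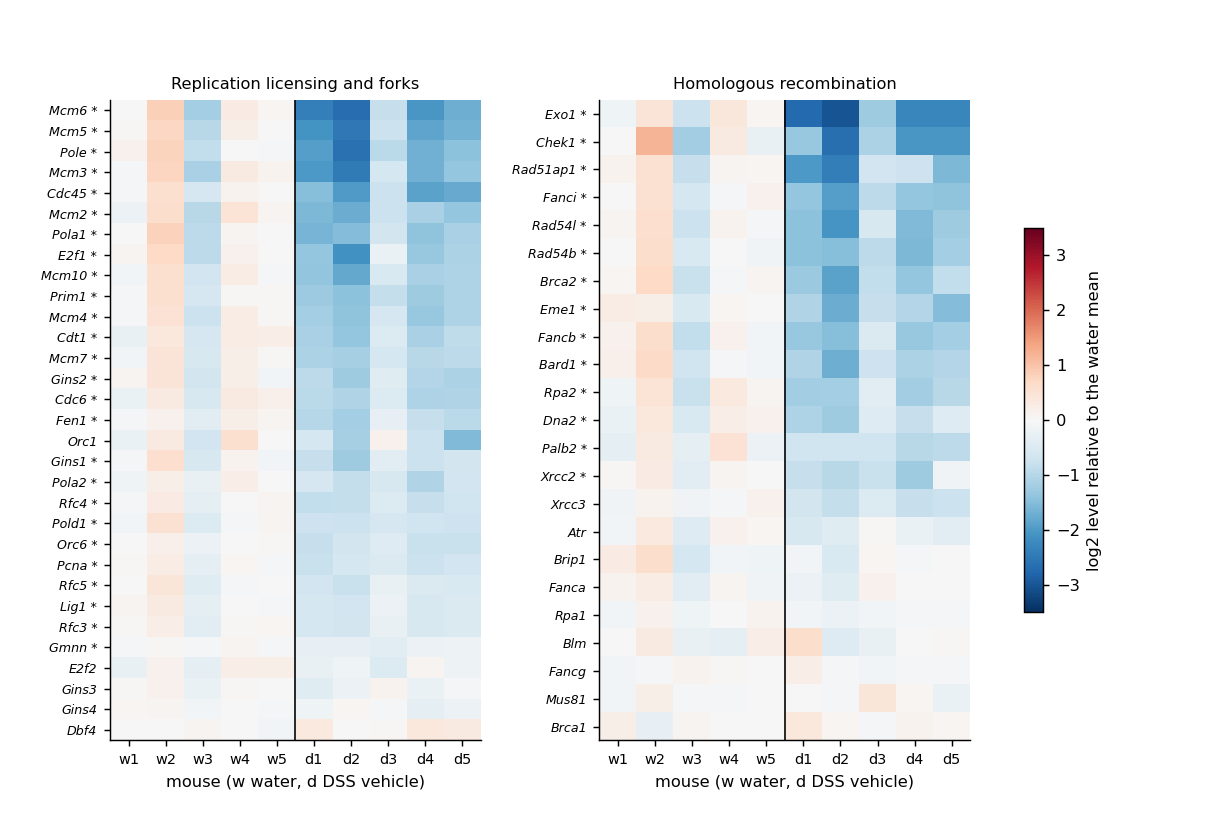
Log2 level relative to the water mean (colour scale from -3.5 to 3.5) of the measured genes for replication licensing and forks (left) and homologous recombination (right, 1 gene not shown), in water mice w1 to w5 and DSS vehicle mice d1 to d5; an asterisk marks a called gene. Blue deepens in d1, d2, d4 and d5, while d3 is paler than the other DSS vehicle mice and w3 is bluer than the other water mice.

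Supply of nucleotides and of ribosomes changed less evenly. Of 30 measured genes of nucleotide synthesis 11 fell and 2 rose (median -0.39), the reductase subunit Rrm2 by 1.28 ± 0.28 SE, the thymidine kinase Tk1 by 1.25 ± 0.28 SE and the guanine nucleotide enzyme Impdh2 by 0.84 ± 0.13 SE. Tyms, the target of fluorouracil, did not pass the test (-0.35 ± 0.14 SE). Without water mouse 3 there were 17 falls and without the fibroblast-rich mice 6, with Rrm2 and Tk1 no longer called. Of the 2 rises, 1 was lost without DSS vehicle mouse 1 or 2 or water mouse 2 or 4, and neither was called without either stroma-rich set. Of 30 ribosome biogenesis genes 17 fell and none rose (median -0.42), among them Gnl3, a nucleolar GTPase of stem and tumour cells, by 1.20 ± 0.21 SE. This count was less stable: 9 fell without water mouse 4 or 5 or without DSS vehicle mouse 1, 2 or 5, 10 fell and 1 rose without water mouse 2, and 6 and 8 fell without the muscle-rich and the fibroblast-rich mice. The p53 pathway halts division after DNA damage. Of its 25 measured genes 4 rose and 2 fell, with 2 rises without DSS vehicle mouse 1 or either stroma-rich set. Over this pathway 24% were called, against 19.2% of all genes. The falls were Trp53, which encodes p53 itself, from 0.48 ± 0.24 to -0.21 ± 0.10, and the damage recognition gene Ddb2, from 0.45 ± 0.09 to -0.05 ± 0.08 (SD, n = 5 per group), both with no overlap.

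**Figure D4:**
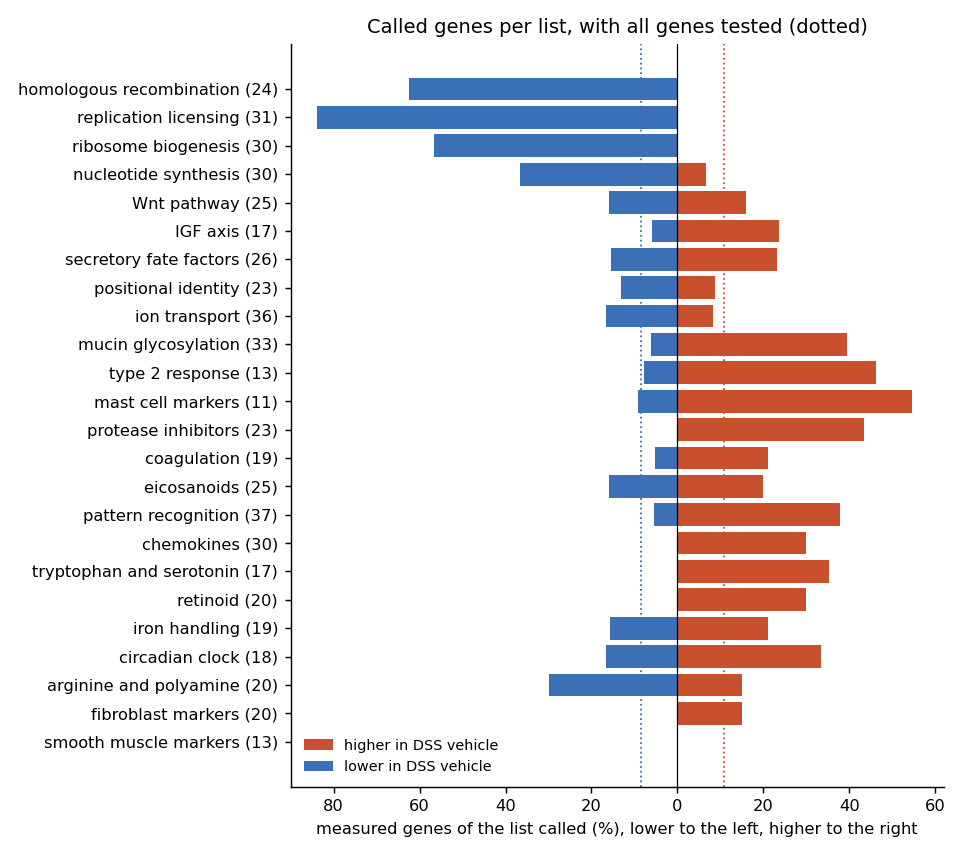
Share of the measured genes of each list (number in brackets) that was called lower (blue, to the left) or higher (red, to the right) in DSS vehicle mice, in percent, with dotted lines at 8.41% and 10.8%, the shares over all genes tested. Replication licensing has 26 of 31 genes lower, mast cell markers 6 of 11 higher, and smooth muscle markers none called.

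Wnt signals keep crypt stem cells dividing, and the pathway's own feedback genes serve as its readout. Of 25 measured genes 4 rose and 4 fell, or 32% against 19.2% of all genes. Axin2, the feedback inhibitor used most as a Wnt reporter, was at -0.83 to -0.45 in water mice and at -2.68, -2.79, -2.01, -2.02 and -2.95 in DSS vehicle mice. Water and DSS vehicle values were far apart, and Axin2 fell 3.64-fold (limma adjusted p = 0.000386). The receptor Fzd7 fell by 1.65 ± 0.22 SE and the receptor-removing ligases Rnf43 and Znrf3 by 0.70 ± 0.17 SE and 0.64 ± 0.16 SE, the calls of the last 2 being lost without the muscle-rich mice. The rises were Apcdd1, Lef1, Wif1 and Fzd5, and none of the 4 kept its call without the muscle-rich mice. Without water mouse 2 or 4 or the fibroblast-rich mice 1 gene rose, and without DSS vehicle mouse 1 or 5, 2 genes rose.

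Among 30 genes of the TGF-beta, activin and BMP family 3 rose and 4 fell, or 23.3% against 19.2% of all genes tested. Inhba, which encodes the activin A subunit, was at -4.51, -6.71, -6.96, -6.56 and -4.85 in water mice, with 2 of 5 well above background, and at -2.34, -3.78, -1.93, -0.86 and -2.03 in DSS vehicle mice. The 2 measured water mice, 1 and 5, were those rich in fibroblast markers. Inhba rose 13.3-fold (limma adjusted p = 0.003). Without the fibroblast-rich mice it was not well above background in any water mouse (mean -6.74 against -2.23) and was at least 7.48-fold higher (limma adjusted p = 0.0126). Ltbp2, a matrix protein of the microfibrils, rose by 1.91 ± 0.23 SE with little spread in either group. Bmp3, a BMP family member that opposes its relatives, fell by 1.77 ± 0.22 SE (limma adjusted p = 0.000266). The other falls were Id2, a BMP target, Bambi, a decoy receptor, and Gdf15, a stress-induced family member, by 1.18, 1.40 and 0.85. Grem1, a secreted BMP antagonist of the crypt base stroma, ranged from -5.12 in DSS vehicle mouse 2 to 0.24 in DSS vehicle mouse 5. It rose (limma adjusted p = 0.0364), and the log2 fold change of Grem1 was 3.42 ± 1.06 SE, 4.27 without mouse 2 and 2.24 without the muscle-rich mice. The call was lost without either stroma-rich set and without any 1 of 8 of the 10 mice, the exceptions being water mouse 1 and DSS vehicle mouse 2. With normexp background correction, and without filgotinib mouse 4 in the fit, 5 genes of the list rose.

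Of 17 genes of the insulin-like growth factor axis 4 rose and 1 fell, and 4 again rose without either set of stroma-rich mice. This axis was called at 29.4%, against 19.2% of all genes. The docking proteins that pass on the receptor signal, Irs2 and Irs1, went from 3.42 ± 0.05 to 4.38 ± 0.12 (SD, n = 5 per group) and from between 0.43 and 0.84 to between 1.15 and 1.82. Pappa2, a protease that frees the growth factors from binding proteins, went from 0.88 ± 0.09 to 1.95 ± 0.07 (limma adjusted p = 0.000209). For these 3 genes all DSS vehicle mice were above all water mice. Igfbp5, a binding protein of fibroblasts and muscle, was well above background in water mice 1 and 5 alone, at -3.02 and -3.14, and at 0.12, -1.72, 0.93, 0.30 and 1.07 in DSS vehicle mice. It rose by 5.22 ± 1.11 SE, and its other probe gave 3.53. Without the fibroblast-rich mice Igfbp5 was not well above background in any water mouse (mean -6.42 against -0.093) and was at least 32.8-fold higher (limma adjusted p = 0.0173). The receptor Igf1r fell by 0.45 ± 0.14 SE (limma adjusted p = 0.0389), a call lost without DSS vehicle mouse 1, 2, 3 or 4 or water mouse 2, 4 or 5.

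Among factors of the endocrine lineage, Neurog3 fell whereas Insm1, Neurod1, Nkx2-2 and Pax4 rose. Secretory cells of the crypt are set aside by Notch signals and Atoh1. Neurog3 then starts the endocrine branch and Insm1, Neurod1, Nkx2-2 and Pax4 act after it. Of 26 measured secretory fate genes 6 rose and 4 fell, or 38.5% against 19.2% of all genes. Neurod1 was at -1.61, -1.45, -1.31, -1.36 and -1.11 in water mice and at -0.30, -0.12, -0.28, -0.29 and -0.35 in DSS vehicle mice. The groups were tight and well apart, and Neurod1 rose 2.15-fold (limma adjusted p = 1.85e-05).

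Insm1, Nkx2-2 and Pax4 rose by 1.04, 1.08 and 0.57 on the log2 scale. Neurog3, in contrast, was well above background in all water mice (mean -3.83) but in 1 DSS vehicle mouse only (mean -4.79) and fell by 0.95 ± 0.15 SE (limma adjusted p = 0.00123). The Notch ligand Dll1 fell by 0.48 ± 0.11 SE. Atoh1 and the goblet cell factor Spdef did not pass the test (-0.06 ± 0.15 and 0.24 ± 0.10 SE). The count of falls was 2 without water mouse 3, 4 or 5, without DSS vehicle mouse 1, 3 or 5 and without either stroma-rich set; the falls of Neurog3 and Dll1 kept their calls in each of those. In the tryptophan list described below, Tph1, the enzyme that starts serotonin synthesis, and Slc18a1, which loads amines into vesicles, rose by 0.77 ± 0.16 SE and 0.93 ± 0.12 SE, beside the rise of Cck given above.

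Genes that record position along the gut were called at a share near that of all genes. Of 23 measured genes 2 rose and 3 fell, or 21.7% against 19.2%. Hoxb13, the homeobox gene of the distal colon, was at 7.18 in both groups (SD of 0.05 in water and 0.06 in DSS vehicle mice), and Cdx2, which marks intestine, had a log2 fold change of -0.05 ± 0.15 SE. The falls were the posterior genes Hoxd10, Hoxd11 and Hoxd12, by 0.64 ± 0.20, 0.90 ± 0.17 and 1.52 ± 0.33 SE (limma adjusted p = 0.0417, 0.0026 and 0.00619). Hoxd12 was lowest in DSS vehicle mice 1 and 2, both at -1.40, and overlapped with water mouse 1 (0.03) through DSS vehicle mouse 4 (0.33). Of the rises, that of Isx is described above.

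Ion transport genes that fell included several of the chloride secretion route. Of 36 measured genes 6 fell and 3 rose (3 and 1 without the muscle-rich mice, and 1 rise without DSS vehicle mouse 1 or 2). That is 25% of the list, against 19.2% of all genes tested. Fxyd4, which tunes the sodium pump, was at 5.54, 5.43, 4.85, 5.90 and 5.68 in water mice and at 2.34, 4.04, 3.68, 3.20 and 4.02 in DSS vehicle mice. It fell 4.07-fold with no overlap (limma adjusted p = 0.00194). Kcnq1, the basolateral potassium channel that sustains chloride secretion, fell by 1.09 ± 0.16 SE, though its 4 probes ranged from -1.16 to 0.14. Its partner Kcne3 and the chloride channel Cftr fell by 0.80 ± 0.20 and 0.63 ± 0.14 SE, calls lost without the muscle-rich mice and, for Cftr, without the fibroblast-rich mice. The magnesium channel Trpm6 fell by 1.25 ± 0.22 SE, with DSS vehicle mouse 2 (-0.56) close to the water mice (-0.43 to -0.09) and the other 4 between -1.93 and -1.49. Slc26a3, the chloride and bicarbonate exchanger of the surface epithelium, did not pass the test (-0.23 ± 0.18 SE).

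Genes of mucus glycosylation and mucin genes moved in both directions. Of 33 measured glycosylation genes 13 rose and 2 fell; 5 rose with arrays put on a common median, 5 without the fibroblast-rich mice and 9 without the muscle-rich mice. The sialyltransferase St3gal1, which caps core structures, rose 3.13-fold (limma adjusted p = 0.00177). The fucosyltransferases that build the terminal H antigen went in opposite directions. Fut2 was at -2.11 to -1.65 in water mice and at -0.50, -0.67, -1.13, -0.72 and -1.10 in DSS vehicle mice, whereas Fut1 was at -2.54 to -1.96 and at -4.41, -3.96, -3.82, -3.48 and -3.34. Neither overlapped between the groups: Fut2 rose by 0.99 ± 0.17 SE and Fut1 fell by 1.53 ± 0.23 SE (limma adjusted p = 0.00156 and 0.00101). B3gnt6, which makes the core 3 structure of colonic mucin, rose by 1.05 ± 0.19 SE. The second fall was lost without DSS vehicle mouse 2 or 3 or water mouse 1, 2 or 5, and 4 genes fell without DSS vehicle mouse 4. Of 16 mucin and trefoil factor genes 4 rose and 2 fell, or 37.5% against 19.2% of all genes. The secreted mucin Muc2 rose by 0.34 ± 0.09 SE, a call that was lost under each other scaling and without either stroma-rich set, and the membrane mucins Muc4 and Muc1 fell by 1.03 ± 0.17 and 0.61 ± 0.14 SE. Nox1, the superoxide source of colon epithelium, fell 3.35-fold with no overlap (limma adjusted p = 0.000291), while Duox2 did not pass the test (0.12 ± 0.16 SE).

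Several mast cell proteases rose, while Kit and Fcer1a, receptors of mast cells, did not pass the test. Mucosal mast cells hold Mcpt1 and Mcpt2, connective tissue mast cells hold Mcpt4 and Cma1, and both carry the receptor Kit. Of 11 measured mast cell markers 6 rose and 1 fell. Mcpt1 was at -4.50, -4.87, -4.66, -5.01 and -4.75 in water mice and at -0.41, 0.06, -0.09, -0.32 and -0.43 in DSS vehicle mice. The 5 DSS vehicle mice were close together and far above the water mice, and Mcpt1 rose 22.9-fold (limma adjusted p = 1.08e-05). Mcpt4, of the connective tissue kind, rose 21.0-fold. Mcpt2 was not well above background in water mice (mean -7.21) and averaged -3.24 in DSS vehicle mice, at least 3.56-fold higher (limma adjusted p = 7.3e-06). Hdc, which makes histamine, rose by 1.46 ± 0.20 SE. Kit and the tryptase Tpsb2 did not pass the test (-0.10 ± 0.12 and -0.11 ± 0.12 SE), nor did the IgE receptor chain Fcer1a (0.48 ± 0.24 SE). Cma1 fell by 0.92 ± 0.27 SE (limma adjusted p = 0.0289), a call lost without water mouse 2, 4 or 5, DSS vehicle mouse 1 or 2 or either stroma-rich set.

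Type 2 immunity, the response to worms and allergens, uses interleukins 4 and 13, which act on epithelium through Il4ra. Of 13 measured genes of this list 6 rose and 1, Il33, fell (5 and 1 without the muscle-rich, 3 and 1 without the fibroblast-rich mice). Itln1 and Retnlb, goblet cell products induced in worm infection, rose 5.49-fold and 3.84-fold (limma adjusted p = 0.00104 and 0.0051), with probes of Itln1 at 0.78 and 2.46, and the call of Retnlb was lost without the fibroblast-rich mice. Il4ra rose 2.33-fold, each DSS vehicle mouse lying above each water mouse.

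Of 23 measured protease inhibitors 10 rose and none fell (6 and 7 higher without the muscle-rich and fibroblast-rich mice, and 1 lower without DSS vehicle mouse 4 or water mouse 3). Wfdc18, a small whey acidic protein family member, was at 0.46 to 1.25 in water mice and at 4.03, 3.19, 4.93, 3.33 and 2.58 in DSS vehicle mice, a rise of 2.85 ± 0.53 SE with no overlap. Serpine2, which blocks thrombin, rose by 3.53 ± 0.83 SE, and by 4.15 without DSS vehicle mouse 2, a call lost without either stroma-rich set. The goblet cell inhibitor Spink4 rose by 0.67 ± 0.13 SE. Of 19 coagulation and fibrinolysis genes 4 rose and 1 fell (2 and 1 without either stroma-rich set), or 26.3% against 19.2% of all genes. Tfpi, which blocks the start of coagulation, fell by 0.92 ± 0.20 SE.

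Among genes of eicosanoid synthesis, Pla2g2a, Pla2g5 and Ptgs2 rose and Alox5 and Alox15 fell. Phospholipases free arachidonic acid, cyclooxygenases turn it to prostaglandins and lipoxygenases to leukotrienes and related lipids. Of 25 measured genes 5 rose and 4 fell (3 and 2 without either stroma-rich set), or 36% against 19.2% of all genes. Pla2g2a, a secreted phospholipase with bactericidal action, was at 0.51, -0.52, -0.69, 0.27 and -0.43 in water mice and at 2.00, 1.96, 3.05, 3.05 and 2.77 in DSS vehicle mice. It rose 6.67-fold with no overlap (limma adjusted p = 0.000766), and Pla2g5 rose 2.98-fold. Ptgs2, the inducible cyclooxygenase, was well above background in 2 water mice and rose by 2.82 ± 0.65 SE, while Ptgs1, the constitutive one, did not pass the test (0.49 ± 0.55 SE). Alox5, which starts leukotriene synthesis, fell by 1.44 ± 0.23 SE and was well above background in 3 DSS vehicle mice. Alox15 was not well above background in DSS vehicle mice (-6.35 against -4.04) and was at least 1.38-fold lower (limma adjusted p = 0.0016).

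Of 37 measured genes, a list of sensors of microbes together with the gasdermin family, 14 rose and 2 fell (11 and 1 without the muscle-rich, 6 and 1 without the fibroblast-rich mice). Clec7a, the receptor for fungal glucan, rose 6.86-fold, Zbp1, a sensor of unusual nucleic acids, 2.55-fold and Tlr2, which binds bacterial lipoproteins, 1.77-fold (limma adjusted p = 0.00386, 0.00419 and 0.00336). Il1b rose 4.66-fold, a call lost without the fibroblast-rich mice, whereas Nlrp3, the sensor of the inflammasome that matures it, was well above background in 2 DSS vehicle mice and fell by 0.61 ± 0.17 SE, a call lost without DSS vehicle mouse 3 or 5 or either stroma-rich set. Mb21d1, which encodes the DNA sensor cGAS, fell by 0.74 ± 0.16 SE. Complement C3 was at 0.87, 0.06, -0.08, -0.25 and 0.15 in water mice and at 3.30, 2.38, 2.79, 2.37 and 3.17 in DSS vehicle mice, a 6.29-fold rise (limma adjusted p = 0.000198). Of 22 complement genes 4 rose and 1 fell, with 2 rises without DSS vehicle mouse 3 or water mouse 2 or 4. This list was called at 22.7%, against 19.2% of all genes. Its fall was Cfb, which builds the alternative pathway convertase, by 0.20, a call lost without water mouse 1, 2, 3 or 4, DSS vehicle mouse 1, 3, 4 or 5 or either stroma-rich set.

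Of 30 chemokines and receptors 9 rose and none fell, with 4 rises without water mouse 2 or either stroma-rich set and 5 without DSS vehicle mouse 5 or water mouse 4. Cxcl13 and Ccr7, which guide B cells and dendritic cells in lymphoid tissue, rose by 2.09 and 2.14 on the log2 scale (limma adjusted p = 0.00151 and 0.0018). The lymphatic chemokine Ccl21a ranged from -2.79 in DSS vehicle mouse 2 to 2.31 in mouse 5. Its log2 fold change of 3.05 became 3.68 without mouse 2 and 2.41 without mouse 5, and its call was lost without any 1 of 8 of the 10 mice (the exceptions being water mouse 1 and DSS vehicle mouse 2) and without either stroma-rich set. B cell, endothelial and macrophage markers were also highest in DSS vehicle mouse 5, as given above, and their part in these values was not tested. Of 24 TNF family genes 5 rose and none fell (3 without water mouse 5, DSS vehicle mouse 4 or the muscle-rich mice and 2 without the fibroblast-rich mice). The family's share of 20.8% was near the 19.2% of all genes, and that of the chemokines and receptors was 30%. Tnf itself rose by 0.51 ± 0.08 SE, from between -2.88 and -2.46 to between -2.22 and -2.12. Of 23 genes of MHC class I presentation 7 rose and none fell, with 4 rises without DSS vehicle mouse 1, 4 or 5 or water mouse 2, 4 or 5 and 3 without either stroma-rich set. There was 1 fall without water mouse 2 or filgotinib mouse 4, and there were 2 without filgotinib mouse 1 or with the 10 arrays alone in the fit. The share called of these class I genes was 30.4%. Psmb9, a subunit of the immunoproteasome, went from 2.61 ± 0.08 to 3.38 ± 0.23 (SD, n = 5 per group, limma adjusted p = 0.000903), and Nlrc5, which switches on the class I genes, rose 3.53-fold.

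Circadian clock genes moved in both directions, with Dbp, Tef and Per3 higher and Arntl and Npas2 lower. In the clock, Arntl with Clock or Npas2 binds E-boxes and drives Per, Cry, Nr1d and Dbp genes, and Dbp and its relative Tef act on D-boxes. Of 18 measured clock genes 6 rose and 3 fell, and 4 and 2 without the muscle-rich and 4 and 1 without the fibroblast-rich mice. The time of day of sampling did not enter the comparison, and its part in these values was not tested. Dbp was at 1.98, 3.10, 3.01, 2.39 and 3.28 in water mice and at 5.49, 4.71, 5.57, 4.69 and 5.23 in DSS vehicle mice. The groups lay well apart, and Dbp rose 5.23-fold (limma adjusted p = 0.00268). Tef rose by 1.36 ± 0.25 SE, from at most 3.34 to at least 4.18, and Per3 by 1.20 ± 0.21 SE, from at most -0.03 to at least 0.21 (limma adjusted p = 0.00272 and 0.00198).

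Per2 rose by 0.97 ± 0.14 SE, with probes at 0.24 and 0.97. Ciart, a repressor of the clock, was well above background in 1 water mouse and 5 DSS vehicle mice and rose by 1.91 ± 0.52 SE, a call lost without water mouse 4 and without either stroma-rich set. Arntl was at 2.26, 1.74, 2.33, 2.26 and 2.04 in water mice and at 1.33, 1.47, 0.06, 1.32 and 0.91 in DSS vehicle mice. It fell 2.15-fold with no overlap, a call lost without the fibroblast-rich mice, and Npas2 fell by 1.16 on the log2 scale. Cry1 fell by 0.87 ± 0.26 SE, a call lost without water mouse 1, 3, 4 or 5, DSS vehicle mouse 2, 3 or 5 or either stroma-rich set. Clock, Nr1d1, Per1 and Nfil3 did not pass the test (-0.21 ± 0.07, 0.51 ± 0.19, 0.48 ± 0.20 and -0.79 ± 0.28 SE). The rise of Nr1d2, the last of the 6, was lost without water mouse 4 or 5, DSS vehicle mouse 1 or 5 or either stroma-rich set.

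The upstream windows of Ciart, Tef and Per3 are shown as picked examples of clock genes that rose and hold such elements. Dbp, Per2 and Nr1d2 also rose and are not shown. The stretches are from the RefSeq promoters of GRCm38.p6 along the gene's strand, Ciart from chr3:95882247-95882364 (minus) and Tef from chr15:81802526-81802571 (plus) with the E-box CACGTG in capitals, and Per3 from chr4:151044796-151044890 (minus) with the D-box TTATGTAA in capitals.
Ciart: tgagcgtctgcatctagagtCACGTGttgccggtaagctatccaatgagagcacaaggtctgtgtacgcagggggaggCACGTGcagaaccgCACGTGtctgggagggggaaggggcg
Tef: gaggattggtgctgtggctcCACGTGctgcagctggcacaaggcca
Per3: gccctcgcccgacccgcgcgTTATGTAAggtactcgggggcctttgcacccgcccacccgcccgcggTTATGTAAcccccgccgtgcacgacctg
Of the 15 clock genes with a promoter in the table, 4 held CACGTG and 1 held TTATGTAA on either strand within 250 bases of the start, against 6.02% and 0.819% of all promoters. Here too genes are counted by any of their promoters and the percentages are per promoter.

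**Figure D5:**
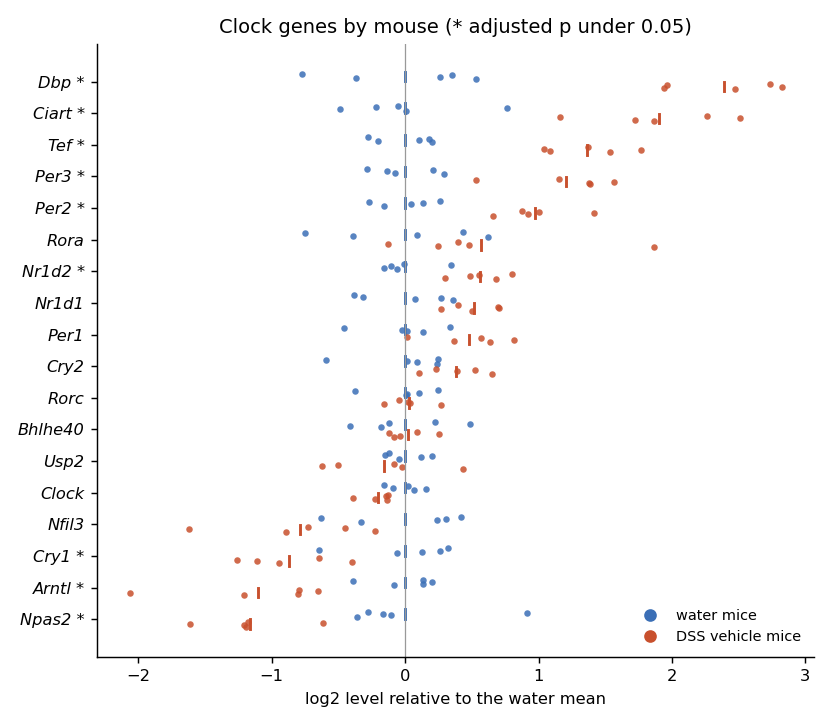
Log2 level of each measured clock gene relative to the water mean (horizontal axis), ordered by the mean change, with 1 point per mouse (water in blue, DSS vehicle in red), bars at the group means and an asterisk for a called gene. Dbp, Ciart, Tef and Per3 lie to the right in all 5 DSS vehicle mice and Arntl and Npas2 to the left, with the largest loss of Arntl in DSS vehicle mouse 3.

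Genes of iron handling moved in both directions. Of 19 measured genes 4 rose and 3 fell (3 and 2 without the muscle-rich, 2 and 2 without the fibroblast-rich mice), or 36.8% against 19.2% of all genes. Steap4, a membrane reductase of iron and copper, was at -3.00, -3.19, -2.36, -3.86 and -3.17 in water mice and at 0.14, -0.11, 0.32, -0.85 and -0.25 in DSS vehicle mice. No values overlapped, and Steap4 rose 7.80-fold (limma adjusted p = 0.000561). Its RefSeq promoter (GRCm38.p6, chr5:7960336-7960384, plus strand) holds TTCCNGGAA, the palindrome bound by STAT factors, shown in capitals. Steap4 was picked from the 15 largest rises, and whether the others hold the motif was not examined.
Steap4: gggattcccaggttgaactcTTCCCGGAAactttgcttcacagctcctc
The motif was found in 0.913% of all promoters, on either strand.

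Hamp, which encodes the iron hormone hepcidin, was well above background in all water mice and in 1 DSS vehicle mouse and fell by 1.74 ± 0.46 SE (limma adjusted p = 0.0178). Trf, which encodes transferrin, fell by 1.56 ± 0.40 SE, most in DSS vehicle mice 1 and 2 (-0.02 and -0.04) and least in mouse 5 (2.13, against 2.20 to 2.87 in water mice). Lcn2, which traps bacterial iron carriers, rose by 1.76 ± 0.40 SE, but stayed at -3.58 in DSS vehicle mouse 2, within the water range of -3.88 to -3.48. Its call was lost without the fibroblast-rich mice. The exporter Slc40a1 did not pass the test (0.04 ± 0.16 SE).

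In the tryptophan list 6 of 17 measured genes rose and none fell (3 without the fibroblast-rich mice). Ido1, which opens the kynurenine route, was at -1.72, -1.17, -1.13, -0.67 and -1.57 in water mice and at 2.58, 1.08, 1.79, 2.83 and 2.58 in DSS vehicle mice. It rose 10.7-fold with no overlap (limma adjusted p = 0.00368), a call lost without the fibroblast-rich mice. Tph1 and Slc18a1 of the serotonin branch rose as given above. In the retinoid list 6 of 20 rose and none fell (3 without the fibroblast-rich mice, and 1 fall without DSS vehicle mouse 5 or without filgotinib mouse 1 or 3). The tryptophan list was called at 35.3% and the retinoid list at 30%, against 19.2% of all genes. Dhrs9, a retinol dehydrogenase, was at -3.53, -4.30, -3.48, -4.18 and -3.81 in water mice and at -0.64, -0.81, -0.35, -0.62 and -1.49 in DSS vehicle mice and rose 8.44-fold (limma adjusted p = 0.000291). Cyp26b1, which degrades retinoic acid, was well above background in 3 water mice and rose 4.12-fold (limma adjusted p = 0.00379).

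Of 20 urea cycle and polyamine genes 6 fell and 3 rose (3 lower without water mouse 4, DSS vehicle mouse 1 or either stroma-rich set, which left 1 rise and none). Cps1, the entry enzyme of the urea cycle, fell 2.60-fold and Oat, which links ornithine to proline, 1.49-fold (limma adjusted p = 0.000424 and 0.00025), beside Otc above. Nos2, the inducible nitric oxide synthase that competes for arginine, rose 2.50-fold (limma adjusted p = 0.00467), a call lost without the fibroblast-rich mice. The ornithine decarboxylase Odc1 did not pass the test (0.05 ± 0.12 SE). Phgdh, the first step of serine synthesis, fell by 1.83 ± 0.33 SE and the desaturase Fads1 by 2.10 ± 0.41 SE, both with no overlap and both lowest in DSS vehicle mice 1 and 2. Of 45 oxidative phosphorylation genes 21 rose and 1 fell, each by at most 0.34 on the log2 scale, but none rose with arrays put on a common median, the other scalings gave 5 to 9 rises, and 6 and 5 rose without the muscle-rich and the fibroblast-rich mice.

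Matrix genes had large mean changes, of which few passed the test, and mice of the same group differed widely. The median log2 fold change of 24 collagen genes was 1.32, yet 3 rose (none without the muscle-rich and 1 without the fibroblast-rich mice, 1 without DSS vehicle mouse 1, 3 or 5 or water mouse 3 or 4, and 5 without filgotinib mouse 1). Collagens were called at 12.5%, below the 19.2% of all genes. Relative to the water mean the list's median ran from -1.07 to 1.08 in water mice and from 0.59 to 2.45 in DSS vehicle mice, so the groups overlapped. Col18a1, a basement membrane collagen, was at -0.99, -2.63, -2.69, -2.27 and -0.89 in water mice and at 0.30, -0.57, 1.30, 1.30 and 1.47 in DSS vehicle mice. Water mice 1 and 5 were again the highest of their group, and Col18a1 rose by 2.65 ± 0.68 SE (limma adjusted p = 0.0155), a call lost without the muscle-rich mice. Of 31 basement membrane and integrin genes 8 rose and 1 fell (4 rises without water mouse 2 or the muscle-rich mice), a share of 29.0%. Lama1, the laminin chain of embryonic basement membranes, was well above background in 1 water mouse and rose by 3.13 ± 0.74 SE, whereas Lamb2 fell by 0.97 ± 0.23 SE.

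Keratins (28.6%) and markers of squamous (21.4%), nerve (33.3%) and fat cells (20%) were called at or above the share of all genes, 19.2%. Of 21 measured keratins 6 rose and none fell, with 2 or 3 rises under other scalings and 3 without the fibroblast-rich mice. Krt14, the basal keratin of skin and other stratified epithelia, was at -0.24, -0.62, -0.78, -0.29 and -0.31 in water mice and at 1.55, 1.34, 2.43, 1.28 and 0.65 in DSS vehicle mice. It rose 3.72-fold with no overlap (limma adjusted p = 0.00148). Of 14 squamous markers, Krt14 and Dsg3 rose and Lor fell, its call being lost without the fibroblast-rich mice, and 2 genes fell without filgotinib mouse 1 or 4 in the fit.

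Of 9 neuron and glia markers 3 rose and none fell (1 fell without filgotinib mouse 5 in the fit). Ret, the receptor through which enteric nerve precursors are guided, was at -5.01, -5.20, -5.49, -4.62 and -4.58 in water mice, 2 of them well above background, and at -2.52, -2.46, -2.77, -2.65 and -2.96 in DSS vehicle mice. The DSS vehicle mice were nearly level, and Ret rose 4.95-fold (limma adjusted p = 1.85e-05). Uchl1, an abundant enzyme of neurons that is also made by endocrine cells, rose 2.65-fold (limma adjusted p = 0.000162). Cidea, a lipid droplet protein known from brown fat, rose 3.16-fold (limma adjusted p = 0.000193), while the median of the 10 adipocyte markers was 0.26.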

How the data were processed

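RNA of 15 mucosa samples was hybridised to 1-colour Agilent arrays, 1 array per mouse. Signals were extracted with Agilent Feature Extraction 11.5.1.1 and limma was used, per the submitters' processing notes. The deposited scanner files hold a processed signal per probe, an intensity on a linear scale from which the background is already subtracted. The authors also deposited a table of log2 values for 32349 probes, whose scale and centring are not described in the sources used here. It correlated with the log2 scanner signal of the same array at r of 0.9988 to 0.9997 and served as an alternative.

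Control probes and 101 probes with an outlier mark were left out, which kept 56504. Names came from the RefSeq table by accession (32939 probes) or by the name in the file (10207), and 13358 kept the file's name. A probe had to exceed background clearly on 5 or more of the 15 arrays, and the brightest such probe represented its gene. The values are log2(processed signal) minus the 75th percentile of the array. All 15 arrays entered a linear model (limma 3.58.1 in R 4.3.3, lmFit and eBayes), and p-values of DSS vehicle minus water were adjusted by the Benjamini-Hochberg method over 22015 genes. The procedure was tested on simulated data.

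Where no array of a group was well above background, "at least N-fold" sets the mean of the other group against the mean of the higher of the array's detection floor and the probe's own value, and the means printed beside it are the measured ones. The genes named were the 15 largest rises and 15 largest falls with no overlap and at least 3 arrays of each group well above background, the 5 largest of each direction by bound, up to 4 members of each of 53 lists and the 10 genes with the largest spread among DSS vehicle mice. Further list members were named after their values were seen. The comparison, its members and the lists were chosen with earlier results of these data known. Replicate numbers did not pair the samples. Some list members that entered the counts are not reported here by name.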

Additional observations from a re-analysis of the deposited data

Results flagged for a closer look

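In 118 groups of 5 mice, made up of 59 named genes in both groups, 12 values stood apart from the other 4 of their group by more than Dixon's 95% criterion of 0.71 of the range. Chance marks about 1 in 20 groups of genes taken without regard to their spread. That rate does not apply to the 10 genes chosen for the largest spread among DSS vehicle mice, which gave 3 of the 12 values, Wdfy3, ENSMUST00000190969 and Inca1. In DSS vehicle mouse 3, Wdfy3 was at 7.61 against -1.04 to -0.66 in the other mice of its group, while its other probe gave -3.16 in that mouse and -3.04 to -2.88 in the others. The same mouse was at 1.12 for ENSMUST00000190969 (-4.26 to -3.53 in the others, 1 probe) and at -0.21 for Inca1 (-4.44 to -3.86 in the others), whose other probe gave -3.59 in it.

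DSS vehicle mouse 2 was low for Smoc2 (-4.13 against -1.49 to -1.05), Fam64a (-5.25 against -3.78 to -3.40), Mmp13 (-3.88 against -1.56 to -0.90) and Mmp3 (-5.60 against -2.14 to -1.60). DSS vehicle mouse 4 was low for Bex1 (-2.85 against -2.17 to -1.94). Among water mice, mouse 1 was high for Alb (1.29 against -1.85 to -1.52) and for Mmp13 (-5.38 against -7.47 to -7.08, not well above background), mouse 2 was high for Npas2 (-0.86 against -2.12 to -1.87), and mouse 3 was low for Ddah1 (-3.93 against -3.47 to -3.35).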

How the results depend on the processing

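Of 2369 rises, 956 were counted with arrays scaled to a common median, 34 with the slide as a block, 1122 without the 2 muscle-rich mice and 832 without the 3 fibroblast-rich mice, a pair of alternatives chosen after seeing the data. Falls numbered 50 with the slide as a block and 999 and 849 without those mice, against 1852. Leaving out 1 array at a time gave 1522 to 2635 rises and 1308 to 2008 falls. With the replicate number as a block there were 1841 rises and 1572 falls. Same-numbered mice of the groups correlated between -0.14 and 0.53, so the numbers were not read as pairing.

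Of 217 named genes, 192 kept direction and call with median scaling, 208 with quantile normalization and 211 with normexp. The count was 197 with the slide as a random block, 154 without the muscle-rich mice and 147 without the fibroblast-rich mice. Directions reversed with the slide as a block, and within slide 2, for Cnn1 (-1.89), Myl9 (-1.61), Pdlim3 (-1.38), Pgm5 (-0.83), Mir143hg (-0.32), Grem1 (-0.077) and ENSMUST00000190969 (-0.021). Without the muscle-rich mice they reversed for Pdlim3 (-0.46), Myl9 (-0.18), Cnn1 (-0.14) and Inca1 (0.21), and without DSS vehicle mouse 3 for Wdfy3 (-0.24, up to 1.92 without mouse 4) and ENSMUST00000190969 (-0.36, up to 0.98 without mouse 4). The cause was not tested. Genes near background have compressed folds, and with 5 mice per group small changes may be missed.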
